A study of Homo sapiens with 27 samples.

Results

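The genes described here are 10 transcriptional outputs and feedback inhibitors of the MAPK pathway, of 32719 genes listed in the deposited tables. They were taken by symbol (ETV1, ETV4, ETV5, DUSP4, DUSP5, DUSP6, SPRY1, SPRY2, SPRY4 and SPRED1), and each of the 10 was found, all protein-coding and each on a chromosome of its own. Expression was measured by RNA sequencing in 3 human breast cancer cell lines, each in 3 conditions with n = 3 libraries, 27 libraries in all. T47D is a luminal line that expresses the estrogen receptor, SKBR3 carries an amplified ERBB2 gene, and MDA-MB-453 is a line that lacks the estrogen receptor. Cells were reverse transfected with an siRNA pool against TLE3 (siTLE3), a corepressor of the Groucho family, with a pool against FOXA1 (siFOXA1), a forkhead pioneer factor, or with a non-targeting siRNA (siNS), and RNA was collected 48 h later. The study addressed which transcripts depend on TLE3 in luminal breast cancer cells. Silencing was transient, each pool was tested against 1 control siRNA, and the labels call the replicates biological without saying whether they were separate cultures, so that p-values measure only the spread between these samples. In bulk RNA, fewer cells with a transcript and less of it per cell cannot be told apart.

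In the MAPK pathway, growth factor receptors activate RAS, which passes the signal through RAF and MEK kinases to ERK. Active ERK raises transcription of the ETS factors ETV1, ETV4 and ETV5, in part by relieving repression by CIC, and of proteins that dampen the pathway. DUSP4, DUSP5 and DUSP6 are phosphatases that inactivate ERK, the Sprouty proteins SPRY1, SPRY2 and SPRY4 inhibit signalling from receptor tyrosine kinases, and SPRED1 brings the RAS inactivator neurofibromin to the membrane. Levels of these transcripts are widely used as a readout of pathway output. ERK activity and proteins were not measured here.

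Promoter windows of 300 bases (250 before and 50 after an annotated start) from RefSeq, build GRCh38.p14, were matched for 6 of the 10 genes: ETV1, DUSP6, SPRY1, SPRY2, SPRY4 and SPRED1, with 14 windows because some have several starts. ETV4, ETV5, DUSP4 and DUSP5 had no entry. A stretch of 60 bases on the gene's strand is shown from 1 window of each gene that holds letters of a factor class named above, with the matched letters in capitals. The ETV1 stretch (chr7:13991517-13991576, minus strand) has CCGGAA, an ETS core, followed by TGAATGGA, a CIC site. Other ETV1 windows, not shown, also hold matches, to the forkhead letters in 1 and to the ETS core in 2 that overlap and share the site. The DUSP6 stretch (chr12:89352649-89352708, minus strand) has TGTTTGC, a forkhead site. The SPRY1 (chr4:123398292-123398351, plus strand) and SPRY2 (chr13:80341236-80341295, minus strand) stretches each have CCGGAA.
ETV1: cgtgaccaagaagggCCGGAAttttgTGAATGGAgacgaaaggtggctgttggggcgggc
DUSP6: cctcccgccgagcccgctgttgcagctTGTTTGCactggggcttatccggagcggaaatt
SPRY1: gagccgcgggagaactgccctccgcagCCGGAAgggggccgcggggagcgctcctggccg
SPRY2: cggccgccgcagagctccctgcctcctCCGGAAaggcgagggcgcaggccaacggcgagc
Both strands were searched for TGAATGAA or TGAATGGA (CIC), TGTTTNC (forkhead), TGANTCA (AP-1) and CCGGAA (ETS). None of these motifs is contained in another. Of 35116 windows of this length, 2.63% hold the CIC letters, 18% the forkhead letters, 7.71% the AP-1 letters and 17.2% the ETS letters. The windows of SPRY4 and SPRED1 hold none of the 4 motifs, and a match in a window is a description of its letters, not evidence of binding.

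TLE3 and FOXA1 transcripts were lower in every library given the matching pool. In units of CPM (read counts scaled to library size with TMM factors), TLE3 was 115 to 158 in the 9 siNS libraries and 27.3 to 39.2 in the siTLE3 libraries, and FOXA1 was 365 to 796 in siNS and 74.5 to 142 in siFOXA1. TLE3 also differed with siFOXA1, lower in MDA-MB-453 (log2 fold change -0.79, SE 0.07, adjusted p = 2.88e-08) and higher in T47D (0.22, SE 0.07, adjusted p = 0.0211), and FOXA1 in T47D given siTLE3 (0.54, SE 0.06, adjusted p = 9.19e-06). Luminal epithelial markers (KRT8, KRT18 and 6 others) were read in every group. Estrogen and progesterone receptor transcripts together were 301.5 to 946.8 CPM in T47D and at most 2.093 CPM in the other lines. In the deposited hg19 annotation the ETS genes span chr7:13930853-14031050 (ETV1), chr17:41605212-41656988 (ETV4) and chr3:185764097-185828107 (ETV5), all on the minus strand. DUSP6 spans chr12:89741009-89747048 on the minus strand and DUSP5 chr10:112257596-112271302 on the plus strand. SPRY2 (chr13:80910111-80915086) and SPRY4 (chr5:141689992-141706020) are on the minus strand, and SPRY1 (chr4:124317950-124324910) and SPRED1 (chr15:38544527-38649450) on the plus strand. DUSP4 is on the minus strand of chromosome 8. Libraries held 15968223 to 26208135 counted reads. SKBR3 siNS library 3 and siTLE3 library 1 stood apart, at a root mean square log2 difference of 0.645 and 0.613 from the other libraries of their group, against 0.26 to 0.48 for the other 25 libraries. SKBR3 calls of the 10 genes that change without them are given both ways. The fits without them hold fewer libraries, picked out for their distance, and many more of all genes passed in them. Their adjusted p-values therefore show how a call depends on these libraries and do not make good a call that failed otherwise.

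In control cells most of the 10 genes were at different levels in the 3 lines, and MDA-MB-453 had the highest mean level of 8 of them. A line cannot be told apart from anything processed with it. DUSP6 was 7.48, 5.76 and 6.05 CPM in the T47D siNS libraries, 0.741, 1.63 and 1.19 in SKBR3 and 195, 237 and 226 in MDA-MB-453. The lines did not overlap for DUSP6. SPRY4 was 1.11 ± 0.40 CPM (SD) in T47D, 29.0 ± 6.59 in SKBR3 and 81.8 ± 3.93 in MDA-MB-453. ETV4 and DUSP4 were instead highest in SKBR3, at 5.75 ± 1.11 and 166 ± 13.1 CPM. Between T47D and MDA-MB-453, all 10 genes were lower in T47D by edgeR's quasi-likelihood test (Benjamini-Hochberg adjusted p under 0.05), where 29.8% of all genes tested were lower and 35.2% higher. The smallest of these differences was SPRY2 (log2 -0.70, SE 0.26, adjusted p = 0.0316), which failed without any of 5 of the 6 libraries of the comparison. Against SKBR3, MDA-MB-453 was higher for 8 genes and lower for ETV4 and DUSP4, with 33.2% and 35.9% of all genes tested in those directions. T47D was higher than SKBR3 for DUSP6 and SPRY2 and lower for 5 genes, with 35.2% of all genes higher and 33.1% lower, and ETV1, ETV5 and DUSP5 did not pass. Per kilobase of listed gene length, the scale on which genes can be set side by side, DUSP6 at 49.8 CPM per kb led in MDA-MB-453, DUSP5 at 16.6 in T47D and DUSP4 at 29.9 in SKBR3.

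**Figure D1:**
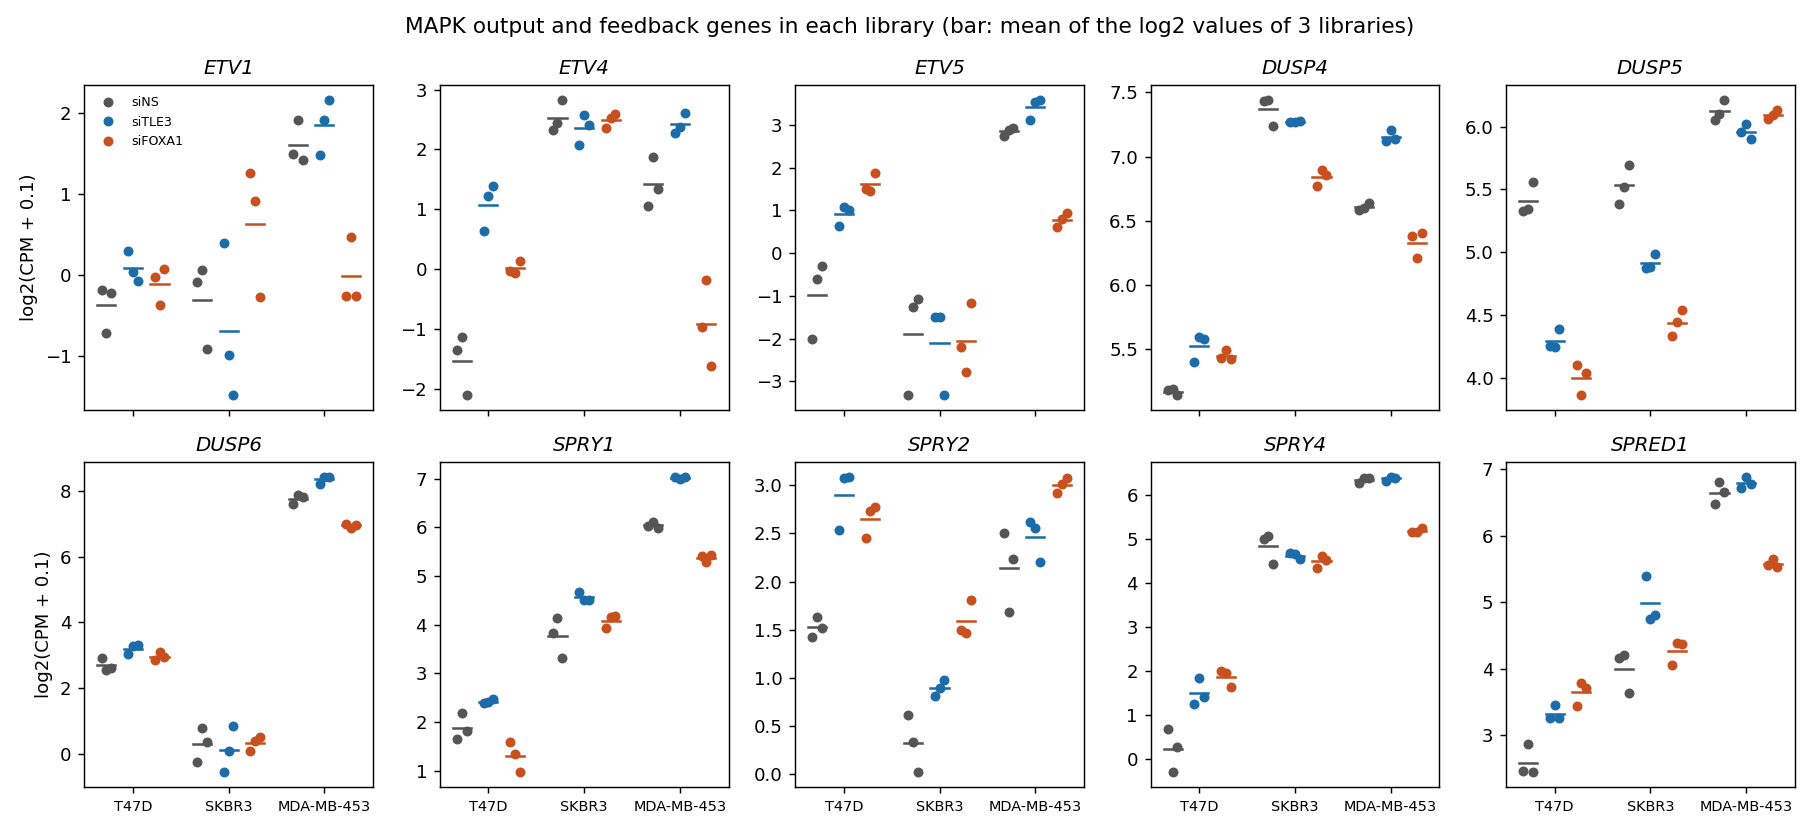
Levels of the 10 genes in all 27 libraries, as log2(CPM + 0.1) on the vertical axis, by line and siRNA. Points are libraries and bars are means of 3 log2 values. In MDA-MB-453 siFOXA1 lies below siNS for ETV1, ETV4, ETV5, DUSP4, DUSP6, SPRY1, SPRY4 and SPRED1, and above it for SPRY2.

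Silencing TLE3 raised most of these transcripts in T47D and 5 of them in MDA-MB-453, whereas silencing FOXA1 raised 6 in T47D and lowered 8 in MDA-MB-453. Few passed in SKBR3, where replicates varied more and fewer of all genes passed. The coefficient of variation that edgeR fitted over all genes was 0.209 with siTLE3 and 0.165 with siFOXA1 there. In the other lines it was 0.08 to 0.0867, so a gene that did not pass in SKBR3 is not shown to be unchanged. In T47D, siTLE3 was followed by a rise of 8 genes and a fall of 1 (DUSP5), with ETV1 not passing, against 25.4% of all genes higher and 26.7% lower. siFOXA1 in T47D raised 6 and lowered DUSP5 and SPRY1, against 26.0% and 26.8%. In SKBR3, siTLE3 raised SPRED1 and lowered DUSP5 (3.67% higher and 2.00% lower over all genes), and siFOXA1 raised SPRY2 and lowered DUSP4 and DUSP5 (10.4% and 8.78%). In MDA-MB-453, siTLE3 raised 5 genes and lowered none (15.7% and 16.3%). In MDA-MB-453, siFOXA1 raised SPRY2 and lowered 8, with DUSP5 not passing (23.4% and 23.8%). The median log2 fold change over the members was -0.95 in MDA-MB-453 given siFOXA1 and 0.65 in T47D given siTLE3, beside medians of all genes tested of -0.01 and 0.01. ETV5 was not tested in SKBR3 because of low counts. In each line both siRNAs share the same siNS libraries.

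**Figure D2:**
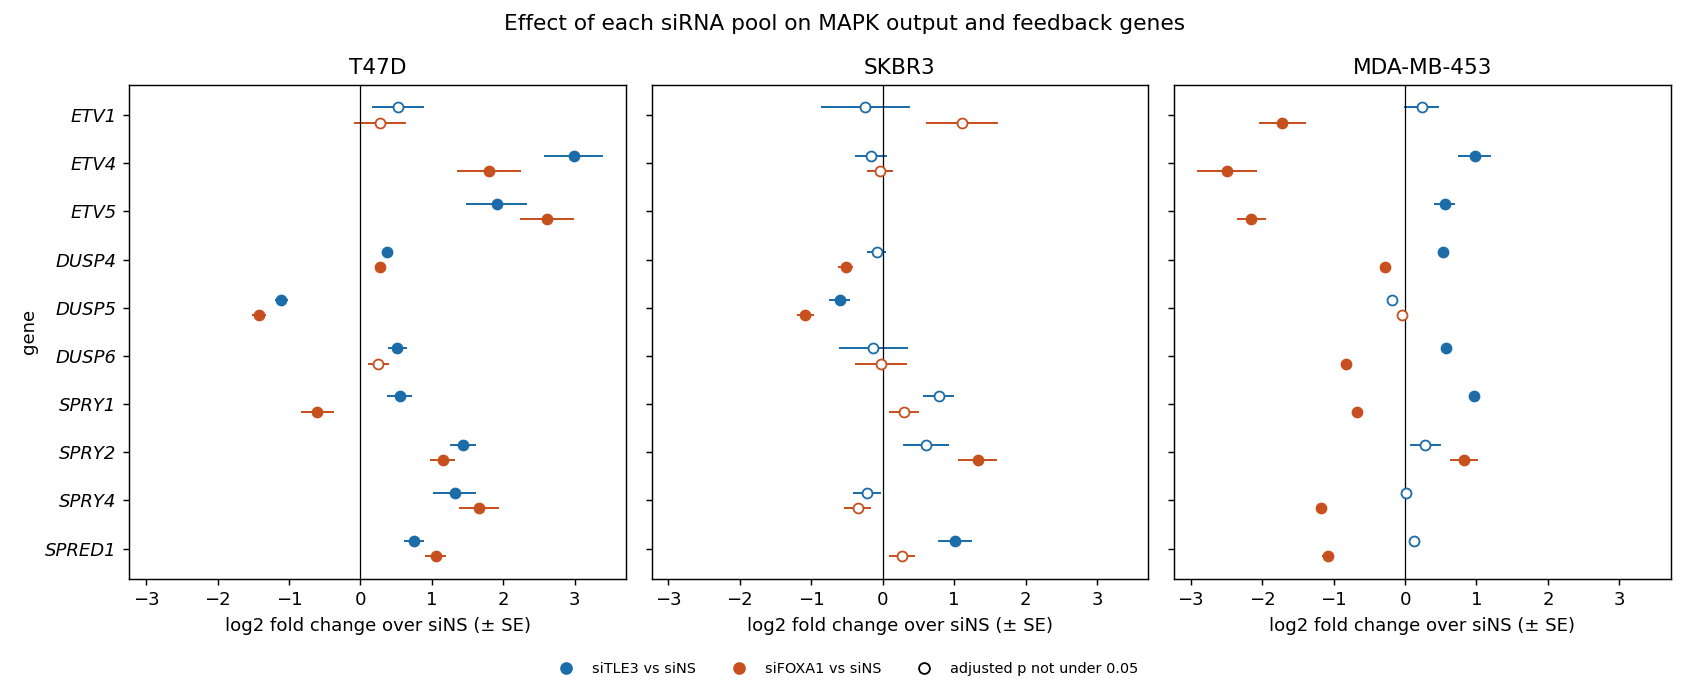
Log2 fold change over siNS (horizontal axis, bars ± SE) of each gene in each line, with filled points for an adjusted p under 0.05. In MDA-MB-453 the siFOXA1 points of ETV1, ETV4 and ETV5 lie between -1.72 and -2.49, while in T47D those of ETV4 and ETV5 lie at 1.80 and 2.62.

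Of the ETS factors, ETV4 rose with siTLE3 in T47D and MDA-MB-453 and moved in opposite directions with siFOXA1 in these lines. ETV4 was 0.293, 0.357 and 0.134 CPM in T47D siNS, 1.45, 2.22 and 2.52 with siTLE3 and 0.880, 0.855 and 1.00 with siFOXA1. The 3 groups did not overlap, although the siNS libraries held 3 to 7 reads each. The log2 fold change was 2.98 with siTLE3 (SE 0.42, adjusted p = 3.91e-05) and 1.80 with siFOXA1 (SE 0.45, adjusted p = 0.00403). In MDA-MB-453, ETV4 was 1.98, 3.58 and 2.43 CPM in siNS, 4.76, 5.09 and 6.02 with siTLE3 and 0.410, 0.787 and 0.226 with siFOXA1. Every siTLE3 library was above and every siFOXA1 library below the controls. The changes were 0.97 (SE 0.23, adjusted p = 0.00542) and -2.49 (SE 0.43, adjusted p = 8.42e-05). In SKBR3, where its control level was highest, ETV4 did not pass with either pool (-0.16, SE 0.23, and -0.04, SE 0.18). ETV4 overlaps DHX8 on the opposite strand, which had up to 2602 reads in a library, and the labels do not give the strand setting of the counting, so reads of the overlap cannot be told apart.

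ETV5 changed in the same directions as ETV4 in T47D and MDA-MB-453. In T47D it was 0.147, 0.560 and 0.712 CPM in siNS, 1.45, 2.01 and 1.91 with siTLE3 and 2.73, 2.65 and 3.55 with siFOXA1. Both silenced groups lay above the controls, with changes of 1.91 (SE 0.42, adjusted p = 0.00183) and 2.62 (SE 0.38, adjusted p = 6.47e-05). In MDA-MB-453 it was 6.61, 7.29 and 7.54 CPM in siNS, 8.49, 11.5 and 11.9 with siTLE3 and 1.44, 1.63 and 1.81 with siFOXA1. The siFOXA1 libraries lay well below the others, with a change of -2.15 (SE 0.21, adjusted p = 7.87e-08), and the rise with siTLE3 was 0.55 (SE 0.15, adjusted p = 0.0119), lost without siTLE3 library 3 (adjusted p = 0.0649). In SKBR3, ETV5 had 0 to 7 reads in a library. ETV1 passed in 1 of the 6 comparisons with siNS, siFOXA1 in MDA-MB-453, from 2.73, 3.67 and 2.58 CPM to 0.739, 1.29 and 0.734 (log2 -1.72, SE 0.33, adjusted p = 0.000277). ETV1 in the other 5 comparisons had changes between -0.24 and 1.11, none of which passed.

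Among the ERK phosphatases, DUSP6, the cytoplasmic enzyme, rose with siTLE3 in T47D and MDA-MB-453 and fell with siFOXA1 in MDA-MB-453. In MDA-MB-453 it was 195, 237 and 226 CPM in siNS, 299.9, 346 and 347 with siTLE3 and 129, 118 and 126 with siFOXA1. The 3 groups were fully separate. The changes were 0.58 (SE 0.08, adjusted p = 9.91e-05) and -0.82 (SE 0.07, adjusted p = 3.18e-08). In T47D it was 8.08, 9.57 and 9.76 CPM with siTLE3 (log2 0.52, SE 0.14, adjusted p = 0.00599) and 7.09, 8.46 and 7.55 with siFOXA1 (0.25, SE 0.15, adjusted p = 0.169), and only the siTLE3 libraries lay above all controls. In SKBR3, with 9 to 31 reads in a library, neither change passed (-0.13, SE 0.48, and -0.03, SE 0.37).

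DUSP5, a nuclear ERK phosphatase, fell with both pools in T47D and SKBR3 and did not pass in MDA-MB-453. In T47D it was 40.0, 40.6 and 47.1 CPM in siNS, 18.9, 18.9 and 20.9 with siTLE3 and 17.0, 14.4 and 16.3 with siFOXA1. Both silenced groups lay far below the controls, at -1.11 (SE 0.09, adjusted p = 2.1e-07) and -1.43 (SE 0.10, adjusted p = 6.46e-08). In SKBR3 it was 41.6, 45.8 and 51.8 CPM in siNS, 29.3, 29.5 and 31.7 with siTLE3 and 20.1, 21.6 and 23.1 with siFOXA1. The groups did not overlap, and the changes were -0.60 (SE 0.15, adjusted p = 0.0495) and -1.09 (SE 0.12, adjusted p = 0.000919). The call with siTLE3 failed when any single library was left out, with changes from -0.53 to -0.65. It passed at -0.52 (adjusted p = 0.000922) without siNS library 3 and siTLE3 library 1 together, where calls over all genes went from 815 to 4164. In MDA-MB-453, at 59.9 to 74.2 CPM in all 9 libraries, neither passed (-0.18, SE 0.07, adjusted p = 0.052, and -0.04, SE 0.07, adjusted p = 0.683). The first passed in the fit of the line's 9 libraries (adjusted p = 0.0281) and without siNS library 1 (adjusted p = 0.0384).

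DUSP4, another nuclear phosphatase of ERK and related kinases, had small changes against small spread. MDA-MB-453 libraries held 95.9, 96.8 and 99.3 CPM of it in siNS, 139, 148 and 141 with siTLE3 and 83.3, 73.8 and 84.5 with siFOXA1. These groups were separate, with changes of 0.53 (SE 0.06, adjusted p = 1.07e-05) and -0.28 (SE 0.07, adjusted p = 0.00217). In T47D it rose with both pools (0.37, SE 0.07, adjusted p = 0.000481, and 0.27, SE 0.07, adjusted p = 0.00484). In SKBR3 it fell with siFOXA1, from 173, 174 and 151 to 109, 119 and 116 CPM (-0.52, SE 0.11, adjusted p = 0.0128), a call that failed without siNS library 2 (adjusted p = 0.0524) or any of the siFOXA1 libraries (adjusted p = 0.0665 to 0.0818).

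SPRY2 was the Sprouty gene that rose with siFOXA1 in all 3 lines. In T47D it was 2.59, 3.00 and 2.76 CPM in siNS and 5.37, 6.57 and 6.73 with siFOXA1 (log2 1.15, SE 0.17, adjusted p = 8.61e-05). In SKBR3 it was 1.43, 1.16 and 0.917 CPM in siNS and 2.72, 2.66 and 3.41 with siFOXA1 (1.33, SE 0.27, adjusted p = 0.0127). The values in MDA-MB-453 were 5.58, 3.12 and 4.60 CPM in siNS and 7.47, 7.98 and 8.30 with siFOXA1 (0.82, SE 0.19, adjusted p = 0.0018). The siFOXA1 libraries lay above the controls in each line, and the SKBR3 call failed without siFOXA1 library 3 (adjusted p = 0.0701). With siTLE3, SPRY2 rose in T47D (1.43, SE 0.18, adjusted p = 1.47e-05) and did not pass in SKBR3 (0.61, SE 0.32) or MDA-MB-453 (0.28, SE 0.22).

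SPRY1 rose with siTLE3 and fell with siFOXA1 in MDA-MB-453. There it was 65.0, 68.7 and 63.6 CPM in siNS, 132, 128 and 130.4 with siTLE3 and 42.6, 39.2 and 43.3 with siFOXA1. The groups were far apart relative to their spread, at 0.97 (SE 0.06, adjusted p = 1.35e-07) and -0.67 (SE 0.07, adjusted p = 5.68e-07). In T47D it also moved apart, at 3.03, 4.48 and 3.43 CPM in siNS, 5.13, 5.20 and 5.48 with siTLE3 and 2.91, 2.43 and 1.86 with siFOXA1. These changes of 0.55 (SE 0.18, adjusted p = 0.0195) and -0.61 (SE 0.23, adjusted p = 0.0425) were lost with DESeq2 (adjusted p = 0.0524 and 0.088), the first also without siNS library 2 or 4, and the second without siNS library 3 or 4 or siFOXA1 library 2 or 3. In SKBR3 it was 14.2, 17.5 and 9.87 CPM in siNS and 25.4, 22.6 and 22.7 with siTLE3 (0.78, SE 0.22, adjusted p = 0.0812). The groups did not overlap, and the change passed with DESeq2 (0.78, adjusted p = 0.0248) and in the fit of the 9 libraries of the line (0.79, adjusted p = 0.0231). Without siNS library 3 and siTLE3 library 1 it was 0.51 (adjusted p = 0.00632), where calls over all genes went from 815 to 4164.

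SPRY4 rose with both pools in T47D and fell with siFOXA1 in MDA-MB-453. In T47D it was 1.52, 0.713 and 1.11 CPM in siNS, 2.26, 3.48 and 2.57 with siTLE3 and 3.92, 3.78 and 3.00 with siFOXA1. Both groups were above the controls (1.32, SE 0.30, adjusted p = 0.00221, and 1.66, SE 0.28, adjusted p = 0.000217). The MDA-MB-453 levels were 77.2, 84.4 and 83.6 CPM in siNS, 80.6, 85.5 and 83.8 with siTLE3 and 35.7, 35.6 and 37.9 with siFOXA1. The siTLE3 libraries overlapped the controls (0.01, SE 0.06, adjusted p = 0.908), and the siFOXA1 libraries lay far below (-1.18, SE 0.07, adjusted p = 1.82e-10). In SKBR3 the change with siFOXA1 was -0.35 (SE 0.19, adjusted p = 0.231), and -0.54 without siNS library 3 (adjusted p = 3.51e-05). With siTLE3 it was -0.22 (SE 0.20, adjusted p = 0.531), and -0.44 without siNS library 3 and siTLE3 library 1 (adjusted p = 0.00348). Calls over all genes went from 2752 to 6671 with siFOXA1 and from 815 to 4164 with siTLE3 in these settings. SPRY4 overlaps a processed transcript on the opposite strand that had at most 30 reads in a library.

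SPRED1 was 5.38, 7.18 and 5.34 CPM in T47D siNS, 9.42, 10.8 and 9.46 with siTLE3 and 10.7, 13.7 and 12.9 with siFOXA1. Both pools raised it there (0.75, SE 0.14, adjusted p = 0.000506, and 1.06, SE 0.15, adjusted p = 4.39e-05). In MDA-MB-453 it was 88.9, 111 and 100.5 CPM in siNS and 46.8, 50.1 and 45.9 with siFOXA1, a separation of -1.08 (SE 0.08, adjusted p = 2.66e-09), while siTLE3 gave 0.13 (SE 0.08, adjusted p = 0.25), and 0.21 (adjusted p = 0.0351) without siNS library 2. In SKBR3 it was 17.7, 18.4 and 12.3 CPM in siNS and 41.9, 26.8 and 27.8 with siTLE3, which did not overlap (1.01, SE 0.24, adjusted p = 0.0463). The highest and the lowest of these values came from the libraries that stood apart, and the call failed when any single library was left out (changes from 0.77 to 1.15). Without both of those libraries the change was 0.59 (adjusted p = 0.000727), where calls over all genes went from 815 to 4164.

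Set directly against each other, the pools differed for 9 of the 10 genes in MDA-MB-453 and for 4 in each of the other lines. In MDA-MB-453, 8 genes were higher with siTLE3 than with siFOXA1 and SPRY2 was lower, where 27% of all genes tested were higher and 26.1% lower. The differences were 3.48 for ETV4 (SE 0.32, adjusted p = 3.65e-09), 2.72 for ETV5 (SE 0.20, adjusted p = 7.37e-11), 1.65 for SPRY1 (SE 0.06, adjusted p = 2.5e-16) and 1.42 for DUSP6 (SE 0.06, adjusted p = 7.84e-15). All 9 calls held when each library was left out in turn. In T47D, 3 genes were higher and ETV5 was lower with siTLE3, against 22.6% and 21.8% of all genes. SPRY1 (1.17, SE 0.20, adjusted p = 0.000451) and ETV4 (1.20, SE 0.30, adjusted p = 0.00572) differed, and ETV5 (-0.69) and DUSP5 (0.33) failed with DESeq2. In SKBR3, DUSP4, DUSP5, SPRY1 and SPRED1 were higher with siTLE3 and none was lower, against 10.8% and 9.25%, and each of these 4 calls failed without at least 1 library. ETV1 was at -1.33 there (adjusted p = 0.158). It passed at -2.199 (adjusted p = 0.00426) without siTLE3 library 1, a setting in which the calls over all genes went from 2841 to 5729, and at -1.35 (adjusted p = 0.0466) with no low-count filter. In T47D, SPRY2 and SPRED1 passed only when a single library was left out (0.44, adjusted p = 0.0461, without siTLE3 library 1, and -0.40, adjusted p = 0.0295, without siFOXA1 library 1).

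**Figure D3:**
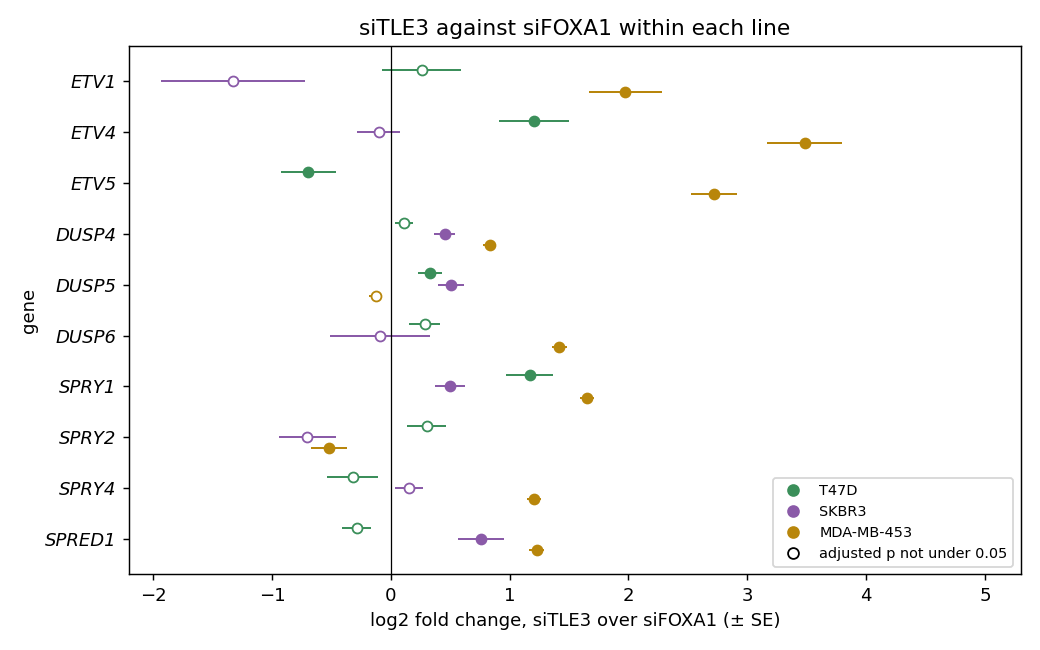
Log2 fold change of siTLE3 over siFOXA1 (horizontal axis, bars ± SE) for each gene in the 3 lines, filled where the adjusted p is under 0.05. The MDA-MB-453 points reach 3.48 for ETV4 and lie at 1.21 for SPRY4 and 1.23 for SPRED1, where the T47D points are at -0.32 and -0.29.

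Whether an effect differed between lines was tested over 18 libraries with the line-by-siRNA terms. For siFOXA1, 9 of 10 genes differed between lines, where 31.5% of all genes tested did, and SPRY2 did not pass (adjusted p = 0.414). The lowest adjusted p-values were those of SPRED1 (4.6e-07), SPRY4 (5.55e-07) and DUSP5 (7.31e-07). SPRED1 and SPRY4 rose in T47D and fell in MDA-MB-453, whereas DUSP5 fell in T47D and SKBR3 and did not pass in MDA-MB-453. For siTLE3, 6 of 10 genes differed, where 11.4% of all genes did. They were ETV4, DUSP4, DUSP5, SPRY2, SPRY4 and SPRED1, and the calls of SPRY2 and SPRED1 (adjusted p = 0.0437 and 0.0497) failed without single libraries. Without SKBR3 siNS library 3 and siTLE3 library 1, these 6 passed and so did ETV1 (adjusted p = 0.045) and SPRY1 (0.0182), while the calls over all genes went from 2045 to 4439. ETV5 passed with DESeq2 (adjusted p = 0.0123), with no low-count filter (0.0171) and without SKBR3 siNS library 1 (0.0403).

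Within a line the genes varied together to different degrees. Over the 9 libraries of MDA-MB-453 the median Pearson r of the 45 gene pairs was 0.828, with 29 pairs positive. It was 0.549 in T47D, with 34 pairs positive, and -0.07 in SKBR3, with 19 positive. In SKBR3, ETV5 had 0 to 7 reads in a library, ETV1 4 to 39 and DUSP6 9 to 31, so counting noise enters r there. How far low counts or the libraries that stood apart changed r was not tested. The libraries of a line share their siRNA groups, so the values describe the group differences above. Among genes outside the list, after each line's mean was removed, DUSP5 was most like C2CD2L (r = 0.942 over 27 libraries) and DLG3 (0.922). SPRY2 was most like DNAAF2 (0.93) and KLF5 (0.918), SPRY1 most like PIP5K1A (0.915) and PSME4 (0.912), and SPRED1 most like ABHD17C (0.905) and ACER3 (0.901). ETV4 was most like ZNF726 (0.88) and NKD2 (0.867), DUSP6 most like SPOCD1 (0.888) and SLC39A7 (0.846), and DUSP4 most like KIAA1324 (0.878) and ZDHHC16 (0.868). The best matches of ETV1 (STAMBPL1, 0.81, and ODF2L, 0.793), SPRY4 (KITLG, 0.783, and GNA12, 0.779) and ETV5 (CHD1L, 0.747, and IGFBP3, 0.722) were lower.

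Other genes of the pathway, taken from lists, moved in both directions in the same comparisons. Of all genes tested in T47D, 25.4% rose and 26.7% fell with siTLE3, and 26.0% and 26.8% with siFOXA1. In MDA-MB-453 the shares were 15.7% and 16.3% with siTLE3, and 23.4% and 23.8% with siFOXA1. A list count near these shares says little about the list. Among 15 growth factor receptors, 12 were tested in T47D and 11 in MDA-MB-453. In T47D, 5 rose and 6 fell with siTLE3, and 5 and 7 with siFOXA1. In MDA-MB-453, 1 rose and 4 fell with siTLE3, and 5 and 4 with siFOXA1. MET, the receptor of hepatocyte growth factor, rose in T47D with siTLE3 (3.04, SE 0.62, adjusted p = 0.001) and with siFOXA1 (3.31, SE 0.58, adjusted p = 0.000292). EGFR rose with siFOXA1 in MDA-MB-453 (2.43, SE 0.19, adjusted p = 4.42e-09). FGFR4 fell in all 6 comparisons, from -0.39 with siTLE3 in MDA-MB-453 to -1.57 with siTLE3 in T47D. Of the 17 adaptor and RAS genes, 17 were tested in T47D and 16 in MDA-MB-453. In T47D, 4 rose and 7 fell with siTLE3, and 8 and 7 with siFOXA1. In MDA-MB-453, 6 rose and 2 fell with siTLE3, and 8 and 4 with siFOXA1. The RAS relative RRAS2 rose in T47D (1.98, SE 0.11, and 2.22, SE 0.11) and in SKBR3 (1.48, SE 0.15, and 1.16, SE 0.11).

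The 12 kinases and scaffolds were all tested in both lines, and their counts stand beside the shares of all genes given above. In T47D, 5 rose and 5 fell with siTLE3, and 4 and 4 with siFOXA1. In MDA-MB-453, 3 rose and 2 fell with siTLE3, and 2 and 5 with siFOXA1. The list of 3 genes for the CIC repressor and its partners gave 1 rise and 2 falls with siTLE3 in T47D and in MDA-MB-453. CIC itself, which represses ETV1, ETV4 and ETV5, fell with siTLE3 in T47D (-0.65, SE 0.09, adjusted p = 3.14e-05) and MDA-MB-453 (-0.47, SE 0.07, adjusted p = 0.000139). It also fell with siFOXA1 in T47D (-0.45, SE 0.09, adjusted p = 0.000805) and did not pass with siFOXA1 in MDA-MB-453 (-0.04, SE 0.07). In SKBR3, CIC passed neither with siTLE3 (-0.47, SE 0.18, adjusted p = 0.165) nor with siFOXA1 (-0.18, SE 0.10, adjusted p = 0.245). Its part in the changes of the ETS factors was not tested.

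Of 29 other negative regulators, 29 were tested in T47D and 28 in MDA-MB-453. In T47D, 12 rose and 6 fell with siTLE3, and 9 and 6 with siFOXA1. In MDA-MB-453, 10 rose and 6 fell with siTLE3, and 10 and 8 with siFOXA1. Over all genes the shares, in this order, were 25.4% and 26.7%, 26.0% and 26.8%, 15.7% and 16.3%, and 23.4% and 23.8%. In MDA-MB-453 with siFOXA1, where 8 of the 10 genes above fell (3 ETS factors and 5 feedback inhibitors), the phosphatase DUSP14 rose (1.53, SE 0.07, adjusted p = 4.9e-12), as did ERRFI1, an inhibitor of ERBB receptors (1.26, SE 0.06, adjusted p = 1.14e-11), while SPRED3 fell (-2.32, SE 0.56, adjusted p = 0.00225). Of 32 other ERK outputs, 29 were tested with siTLE3 and 28 with siFOXA1 in T47D, and 26 and 25 in MDA-MB-453. In T47D, 13 rose and 8 fell with siTLE3, and 11 and 6 with siFOXA1. In MDA-MB-453, 10 rose and 2 fell with siTLE3, and 11 and 5 with siFOXA1. The immediate early genes FOS (1.66, SE 0.38, adjusted p = 0.00145) and JUN (1.44, SE 0.07, adjusted p = 1.7e-11) rose with siFOXA1 in MDA-MB-453, as did FOSL2 (1.53, SE 0.08, adjusted p = 2.43e-11) and MYC (1.27, SE 0.07, adjusted p = 5.23e-11). EGR1 rose with siTLE3 in MDA-MB-453 (2.30, SE 0.10, adjusted p = 5.57e-09), and it fell with siFOXA1 there (-1.14, SE 0.20, adjusted p = 0.00012), a value chosen after it was seen. RPS6KA3, an ERK-activated kinase, rose with siTLE3 in T47D (4.10, SE 0.48, adjusted p = 7.3e-06), and EGR3 fell (-2.90, SE 0.17, adjusted p = 8.11e-09). A score list of 10 pathway output genes holds 6 of the genes described above. In T47D it gave 8 rises and 2 falls with siTLE3, and 6 and 2 with siFOXA1. In MDA-MB-453 it gave 6 rises and 0 falls with siTLE3, and 2 and 7 with siFOXA1. The shares of all genes are those given above. In SKBR3, with 9 tested, 0 rose and 1 fell with siTLE3, against 3.67% and 2.00% of all genes. There 2 rose and 2 fell with siFOXA1, against 10.4% and 8.78%. The 6 shared genes make up 6 of the 8 rises with siTLE3 in T47D, and 5 of the 7 falls with siFOXA1 in MDA-MB-453. Its other 4 genes are also on the list of 32 other ERK outputs and were counted there. Of these 4, EPHA2 rose in both of those comparisons (1.81, SE 0.16, and 1.13, SE 0.11), and EPHA4 rose in the first and fell in the second (0.55, SE 0.14, and -1.04, SE 0.09). CCND1, which encodes cyclin D1, fell in both (-0.96, SE 0.06, and -0.25, SE 0.06), and PHLDA1 fell in the first (-1.17, SE 0.07) and did not pass in the second (0.33, SE 0.28).

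In SKBR3 the counts on these lists depended on which libraries entered the fit. Over all genes tested, 3.67% rose and 2.00% fell with siTLE3, and 10.4% and 8.78% with siFOXA1. With siTLE3, 3 of the 29 other negative regulators (26 tested) rose and none fell. Without siTLE3 library 1 and siNS library 3, 16 of them passed, and the calls over all genes went from 815 to 4164. With siFOXA1, 4 rose and 4 fell (27 tested), and without siNS library 3, 20 passed as the calls over all genes went from 2752 to 6671. The 32 other ERK outputs (27 tested) gave 4 rises and 1 fall with siTLE3 and 8 rises and 1 fall with siFOXA1.

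**Figure D4:**
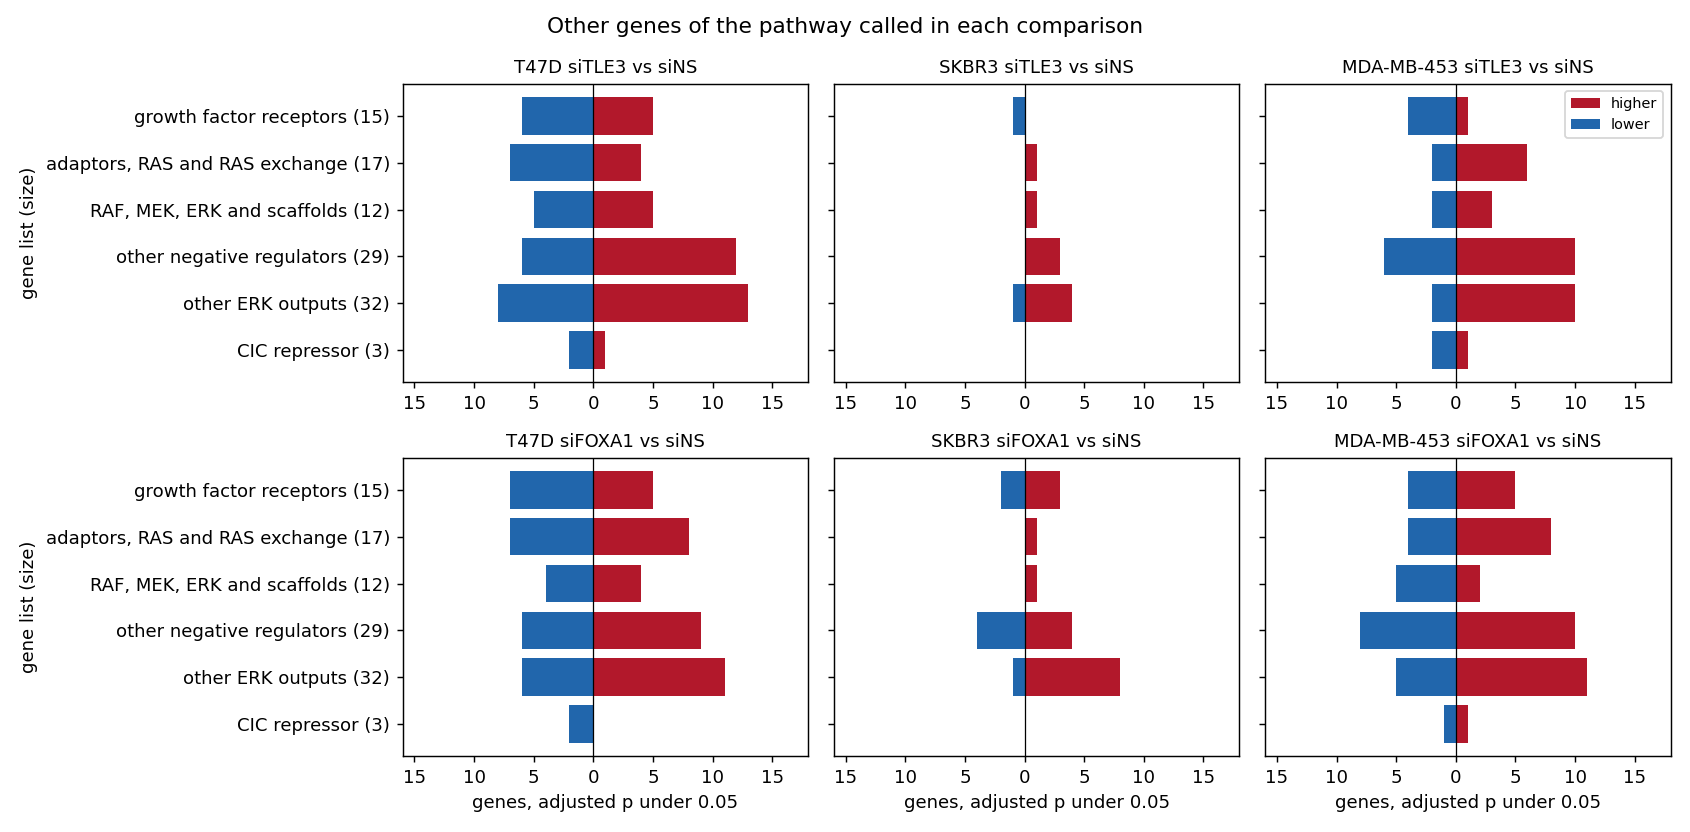
Numbers of genes on each list (sizes in brackets) called lower (left of 0) or higher (right of 0) than siNS, at an adjusted p under 0.05, in the 6 comparisons. Calls in both directions are seen on most lists in T47D and MDA-MB-453, and the SKBR3 siTLE3 bars are short.

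Marker lists of other states also moved with the groups. The summed level of 10 interferon-stimulated genes was 2914 to 6726 CPM in T47D siNS, 3100 to 4885 with siTLE3 and 610.3 to 1622 with siFOXA1. In MDA-MB-453 it was 6159 to 7912, 2747 to 5373 and 5142 to 6088 CPM, and in SKBR3 at most 8.952 CPM in any group. Its genes did not all move alike. With siFOXA1 in MDA-MB-453, mean OAS1 went from 184 CPM in siNS to 239.9 and IFI44L from 49.93 to 74.4. The other interferon-stimulated genes had lower means there, ISG15 from 2865 to 1725 CPM and MX1 from 379.3 to 376.8. The 6 basal or myoepithelial genes summed to 11.9 to 13.1 CPM in T47D siNS and 40.5 to 41.8 with siFOXA1, to 9.28 to 11.3 and 25.1 to 26.4 CPM in SKBR3, and to 3.12 to 4.87 and 34.7 to 37.0 CPM in MDA-MB-453. With siTLE3 these sums were 13.55 to 16.04 CPM in T47D, 12.4 to 15.6 in SKBR3 and 3.95 to 5.31 in MDA-MB-453. Different genes made up the sums. Mean ACTA2 went from 4.885 CPM in siNS to 21.67 with siFOXA1 in T47D, but from 0.397 to 0.196 in MDA-MB-453. The other basal genes had higher means with siFOXA1 in each line. With siFOXA1, KRT5 and KRT17 were at 0.359 and 0.493 CPM in T47D and at 2.903 and 6.945 in MDA-MB-453. Nearly all of the summed level of the 6 fibroblast genes was COL1A1, whose mean was 116.4 CPM in T47D siNS, 64.2 with siTLE3 and 47.3 with siFOXA1. In MDA-MB-453 its means were 163.4, 116.1 and 55.4 CPM, and in SKBR3 26.8, 18.7 and 18.3. The other 5 fibroblast genes had means of at most 8.21 CPM in any group. COL1A2 was 0.42 CPM in T47D siNS and 2.10 with siFOXA1, and DCN and LUM were at 0 in MDA-MB-453. Their part in the results was not tested.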

How the data were processed

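RNA was sequenced from T47D, SKBR3 and MDA-MB-453 cells, 3 libraries for each of 9 groups. The submitters' processing notes list build hg19 and the tools STAR 2.5, HTSeq 0.6.1 and DESeq2. Settings, strand included, are not given in the sources used here. The authors deposited 6 tables, each of an siRNA against siNS, with read counts per gene. The deposited FPKM values of 18 libraries served to check library totals, of which at most 0.02054% was missing from a table. The deposited normalised signal, the authors' log2 fold change and the authors' p-value columns were not used. A table lists only genes with a read in its first 2 siRNA columns, and a gene absent from a line's table was set to 0. Libraries carry the number of their deposited column, which differs from the labelled replicate for MDA-MB-453 siNS and for T47D given siNS or siTLE3. For these groups 30 FPKM and signal columns were not used.

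Counts were tested in R 4.3.3 with edgeR 4.0.16 (filterByExpr, TMM, glmQLFTest, 2-sided) across all genes, with 14 fits of 6, 9 or 18 libraries and Benjamini-Hochberg adjusted p under 0.05 as the threshold. The SE is the log2 fold change divided by the square root of F. CPM came from a TMM scaling of all 27 libraries. The precision of a value is limited by its 3 libraries and, for low genes, by its reads. The scripts were tested on simulated counts. Alternatives were RLE scaling, no low-count filter, DESeq2 1.42.0, the 9 libraries of a line, a replicate block, and libraries left out. Figures were drawn in Python 3.11.15 with matplotlib 3.10.9.

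The members and lists were chosen with earlier results of these data known. Members are named in every group. From each list up to 4 passing genes with the largest change per comparison may be named, and for each member the 2 genes with the highest r over genes of at least 1 mean CPM.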

Additional observations from a re-analysis of the deposited data

Results flagged for a closer look

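The effect of an siRNA pool differed between the 3 lines for 15 results, by edgeR's F test of the line-by-siRNA terms over 18 libraries. Of all genes tested, 11.4% differed for siTLE3 and 31.5% for siFOXA1. For siTLE3 these were ETV4 (adjusted p = 0.000504), DUSP4 (0.00335), DUSP5 (0.00124), SPRY2 (0.0437), SPRY4 (0.00431) and SPRED1 (0.0497). The calls of SPRY2 and SPRED1 failed without single libraries, with adjusted p up to 0.118 and 0.122. The siTLE3 effect on ETV4 was 2.98 in T47D, -0.16 in SKBR3 and 0.97 in MDA-MB-453, and that on SPRY4 was 1.32, -0.22 and 0.01.

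For siFOXA1 the differences were those of ETV1 (adjusted p = 0.00147), ETV4 (1.5e-05), ETV5 (7.99e-06), DUSP4 (2.91e-05), DUSP5 (7.31e-07), DUSP6 (0.000344), SPRY1 (0.00514), SPRY4 (5.55e-07) and SPRED1 (4.6e-07). The siFOXA1 effect on ETV4 was 1.80 in T47D, -0.04 in SKBR3 and -2.49 in MDA-MB-453. DUSP5 is the gene whose effect was large in T47D (-1.43) and SKBR3 (-1.09) and near 0 in MDA-MB-453 (-0.04). The cause of these differences was not tested.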

How the results depend on the processing

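Of 1734 values of the 10 genes under other settings, 1636 kept their direction and their side of the threshold, 76 fell short of it, 22 newly passed and 0 called values changed sign. A further 22 values that passed under neither setting changed sign and are among the 1636. Where a comparison held only 1 of the SKBR3 libraries that stood apart, the fit without it repeats a leave-one-out fit. Such values enter these counts more than once, among them SPRY4 with siFOXA1 (-0.54) and ETV1 between pools (-2.199) in SKBR3. The number of genes called in T47D between siTLE3 and siFOXA1 was 4, and 2 with DESeq2. In SKBR3 with siTLE3 it was 2, with 0 to 0 when single libraries were left out, 1 without the low-count filter and 4 without siTLE3 library 1 and siNS library 3. Leaving out single libraries gave 1 to 4 in SKBR3 with siFOXA1 (main count 3) and 0 to 5 between both pools in SKBR3 (main count 4). Over all genes, SKBR3 with siTLE3 had 815 calls, and 109 to 765 without single libraries, 1495 with DESeq2, 1953 with the 9 libraries of the line and 4164 without both libraries. With siFOXA1 it had 2752 calls, and 1272 to 6671 without single libraries. Deviations of same-numbered libraries from their group means had r of 0.294, -0.01 and 0.415 in SKBR3 siTLE3 against siNS. Differently numbered libraries there had r from -0.402 to 0.255. In the other pairs of groups with labelled numbers, same-numbered r was at most 0.0853. The labels do not say what a shared number stands for, and the main fits were unpaired. With a replicate block the SKBR3 counts of the 10 genes were 3 with siTLE3, 3 with siFOXA1 and 5 between pools, the MDA-MB-453 count between pools was 9, and the SKBR3 siTLE3 calls over all genes were 3699. The block changed 2 calls of the 10 genes, both in SKBR3, where SPRY1 passed with siTLE3 (0.81, adjusted p = 0.000252) and ETV1 between pools (-1.43, adjusted p = 0.0457). No paired analysis was possible for T47D and for the MDA-MB-453 comparisons with siNS because column numbers of MDA-MB-453 siNS and of T47D given siNS or siTLE3 are not the labelled replicate numbers. In the comparisons with siNS the largest SE (0.33 to 0.62) were those of ETV1, ETV4 and ETV5 in T47D, of ETV1 and DUSP6 in SKBR3, and of ETV1 and ETV4 with siFOXA1 in MDA-MB-453, where at least 1 group had 31 reads or fewer in each library, and depth limits what can be said of them.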
